A study of Homo sapiens with 18 samples.

Results

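The LSD1 hairpin was compared with the control hairpin in the P line of A375, a human melanoma cell line that carries an activating BRAF mutation. The libraries are 2 with the LSD1 hairpin (P_shLSD1) and 2 with the control hairpin (P_shCtrl), 4 of the 18 libraries of the series, and they were chosen by the genotype label and the letter that opens each title. P is read as the parental line and R as a drug-resistant line, since the sample labels do not spell the letters out. Cells of both groups carried a lentiviral short hairpin, and their labels name no drug. The R line was given the same 2 kinds of hairpin (R_shLSD1 and R_shCtrl, 2 libraries each) and is used below for the test of a difference between lines. The number of different LSD1 hairpins, their target sites, any selection of infected cells and the time between infection and lysis are not given in the sources used here.

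LSD1, the product of KDM1A, is a flavin-dependent demethylase that removes methyl groups from mono- and dimethylated lysine 4 of histone H3. It works mostly inside the CoREST complex with histone deacetylases of class I, and the complex is brought to promoters and enhancers by repressors such as REST, SNAI1 and GFI1. REST keeps neuronal and secretory granule genes silent outside the nervous system. In several cancers, loss of LSD1 activity is known to derepress silenced genes, endogenous retroviral transcripts and interferon responses. In melanoma the balance of lineage factors such as SOX10 and MITF against SOX9, AXL and matrix genes separates more from less differentiated cells.

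RNA levels are in FPKM, which divide fragments by the length of the transcript and the size of the library. The P_shLSD1 libraries summed to 691629 and 805856 FPKM and the P_shCtrl libraries to 814364 and 657555 FPKM, with 14267 to 14536 genes at 1 FPKM or more in each. The size of the lowest values put the depth very roughly at 9.1 to 10.3 M fragments, so values of a few FPKM rest on few fragments for short transcripts. The 4 libraries did not share one relation between level and transcript length. For the fifth of genes with the shortest transcripts, the median deviation from the mean of the 4 libraries was -0.215 and 0.082 in P_shLSD1, against 0.266 and -0.125 in P_shCtrl, on the log2(FPKM + 1) scale. For the fifth with the highest GC content it was -0.138 and 0.007 in P_shLSD1, against 0.156 and -0.02 in P_shCtrl. In both trends P_shLSD1 replicate 1 lay at the low end and P_shCtrl replicate 1 at the high end, and the groups overlapped. The fit was repeated after removing both trends, and 496 of the 504 genes called below were then called too, among 1234 in all.

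**Figure D1:**
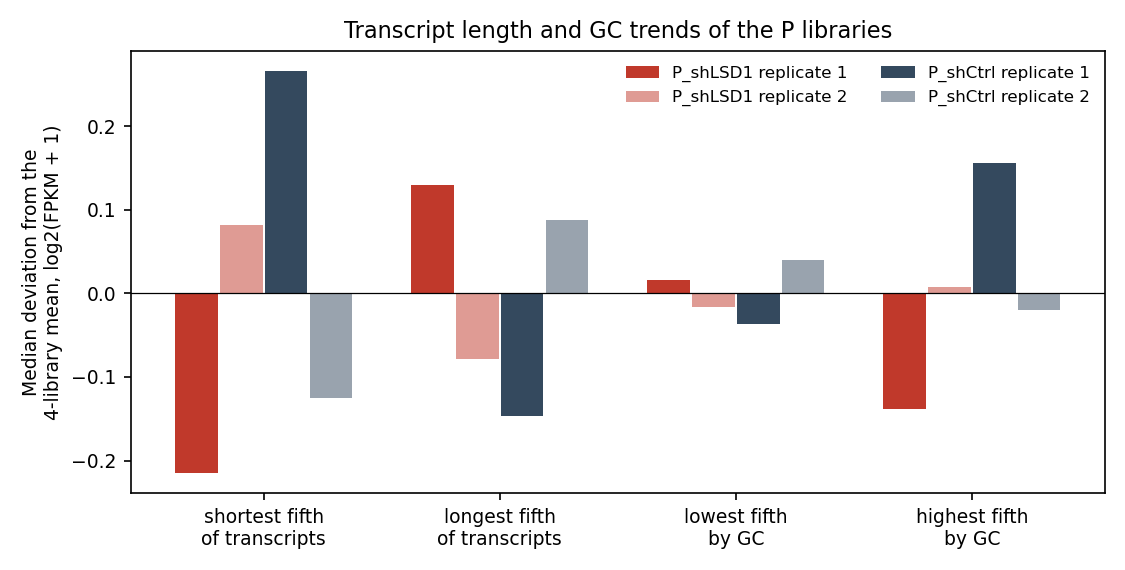
Median deviation of log2(FPKM + 1) from the mean of the 4 P libraries, for the groups of genes with the shortest and longest transcripts and with the lowest and highest GC content. Each bar is 1 library, and P_shLSD1 replicate 1 (-0.215) and P_shCtrl replicate 1 (0.266) lie furthest apart for short transcripts.

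KDM1A itself (chromosome 1 from 23019443 to 23083689, hg38) stood at 9.54 and 6.73 FPKM in P_shLSD1, against 78.1 and 72.4 FPKM in P_shCtrl. Both hairpin libraries lay far below both controls. The mean level was 9.25-fold lower in P_shLSD1 (log2 fold change -3.08 ± 0.20, adjusted p = 0.016), where the fold change is on the log2(FPKM + 1) scale, ± gives its standard error, and the p is limma's, adjusted over all genes tested. In a bulk culture, fewer cells carrying the transcript and less transcript per cell cannot be told apart. Since no label states that the 2 libraries of a group came from different cultures, their spread, and with it every p-value, may be technical.

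Among 10 further genes fixed for their part in melanoma or in this series, 1 passed the threshold of an adjusted p below 0.05. SOX10 (chromosome 22 from 37970686 to 37987422), the neural crest transcription factor that maintains the melanocytic lineage, stood at 185 and 199.8 FPKM in P_shLSD1, against 99.3 and 89.1 FPKM in P_shCtrl. It rose (log2 fold change 1.02 ± 0.17, adjusted p = 0.044), with the groups apart. The call of SOX10 was lost without P_shLSD1 replicate 1 (adjusted p = 0.11), without P_shLSD1 replicate 2 (0.13) and without P_shCtrl replicate 2 (0.067). With eBayes without trend and robust fitting it missed the threshold as well (adjusted p = 0.062). POLR2F overlaps SOX10 on the opposite strand at a mean of 182 FPKM, against 143 FPKM for SOX10, and since the counting strand is not given in the sources used here their reads may not be told apart. Among the 122 genes named, 28 have an overlapping gene above a set fraction of their level. The overlapping genes range from far below the named gene (ITGB8-AS1 at 1.96 FPKM, ITGB8 at 14.2 FPKM) to above it. ITGB4 with GALK1, EI24 with FEZ1, SSB with METTL5 and MCM2 with TPRA1 are among the 28, and the same limit applies. FOSL1, the AP-1 subunit Fra-1, stood at 181 and 196 FPKM in P_shLSD1, against 189 and 187 FPKM in P_shCtrl, and these values interleave (log2 fold change 0.00 ± 0.17, adjusted p = 0.99). The values of MITF, the master regulator of melanocytes, interleaved as well (-0.16 ± 0.21, adjusted p = 0.68), as did those of the receptor tyrosine kinases AXL (-0.08 ± 0.18, adjusted p = 0.82) and EGFR (-0.32 ± 0.34, adjusted p = 0.6) and of GPX4, the peroxidase of lipid peroxides (-0.12 ± 0.28, adjusted p = 0.83). The ERK phosphatase DUSP6, a readout of MAPK signalling, stood at 71.4 and 72.5 FPKM in P_shLSD1, against 99.3 and 97.8 FPKM in P_shCtrl, with the groups apart but the test not passed (-0.45 ± 0.15, adjusted p = 0.14). The transferrin receptor TFRC (0.44 ± 0.19, adjusted p = 0.23), the cystine transporter SLC7A11 (0.48 ± 0.28, adjusted p = 0.35) and the lactate dehydrogenase subunit LDHA (-0.09 ± 0.20, adjusted p = 0.83) also missed the threshold.

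Of 14729 genes tested, 504 passed (3.42%): 324 were higher in P_shLSD1 (2.2%) and 180 lower (1.22%). An unadjusted p below 0.05 by limma was found for 3629 of the 14729. These shares are the background for every list count below. A gene below 1 FPKM in both libraries of a group entered the test only through the other group. At least 2-fold changes made up 287 of the rises and 148 of the falls, and at least 4-fold changes 54 and 17. The median change was 1.47 among the rises and -1.29 among the falls, against -0.04 over all genes tested, and the smallest change that passed was 0.80 in size. All 504 had both hairpin libraries on the same side of both controls, which also held for 54.4% of all genes tested. Separation of the groups, where given for a called gene, therefore adds nothing to its call. Protein-coding genes passed in 3.76%, long noncoding genes in 1.94% and pseudogenes in 1.63%. Calls were made in 1.58% of genes under a mean of 5 FPKM and in 4.50% of those at 50 FPKM or more. Leaving out 1 library gave 271 calls without P_shLSD1 replicate 1, 305 without P_shLSD1 replicate 2, 625 without P_shCtrl replicate 1 and 950 without P_shCtrl replicate 2. Of the 504, 162 were called in each of those 4 fits.

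**Figure D2:**
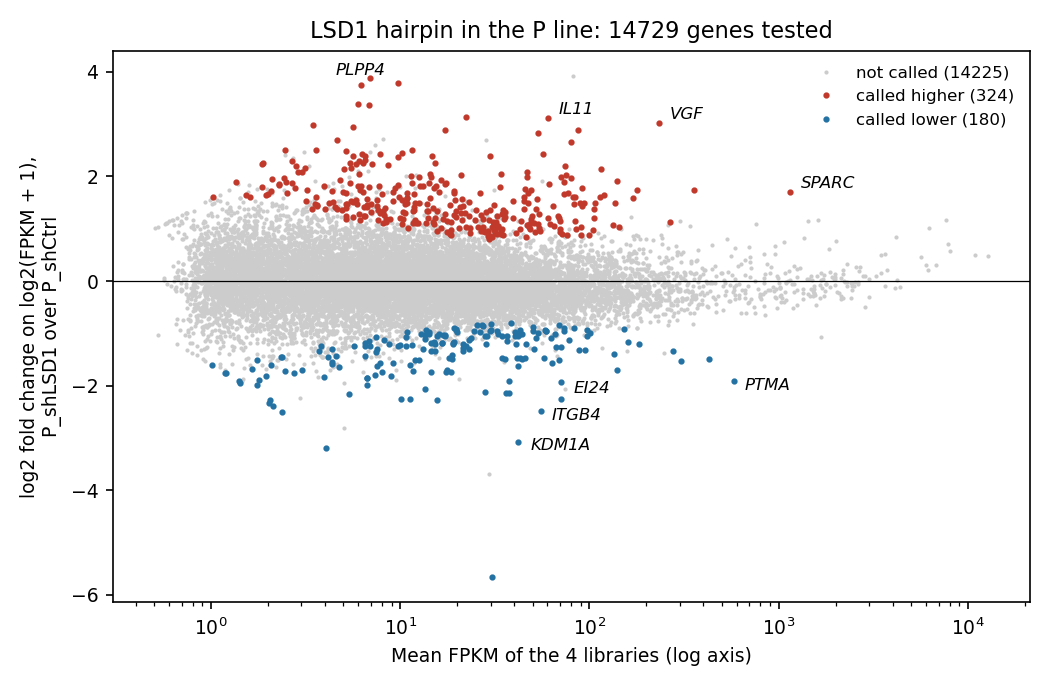
Log2 fold change of P_shLSD1 over P_shCtrl against the mean FPKM of the 4 libraries (log axis) for the 14729 genes tested. Each point is a gene, with 324 called higher and 180 called lower, and KDM1A lies among the lowest named genes at -3.08.

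The largest rises included genes of secreted and matrix proteins. IL11 (chromosome 19 from 55364389 to 55370463), a cytokine of the IL-6 family that drives stromal and fibrotic responses, stood at 111 and 108 FPKM in P_shLSD1, against 10.7 and 12.8 FPKM in P_shCtrl (log2 fold change 3.12 ± 0.15, adjusted p = 0.016). VGF (chromosome 7 from 101162509 to 101165593), a neuroendocrine granule protein, stood at 369 and 463 FPKM in P_shLSD1, against 57.1 and 43.4 FPKM in P_shCtrl (3.03 ± 0.22, adjusted p = 0.016). Each pair of libraries of these genes lay close together and far from the other pair. PTPRN (chromosome 2 from 219289623 to 219309648), a transmembrane protein of dense-core secretory granules, stood at 12.1 and 14.4 FPKM in P_shLSD1, against 0.305 and 0.461 FPKM in P_shCtrl (3.36 ± 0.23, adjusted p = 0.016). PLPP4, a lipid phosphatase, stood at 15.5 and 22.4 FPKM in P_shLSD1, against 0.764 and 0.149 FPKM in P_shCtrl (3.79 ± 0.31, adjusted p = 0.017). Both genes were below 1 FPKM in each control library and above 10 FPKM in each hairpin library, so they entered the test through the hairpin libraries alone. LUM, the proteoglycan lumican, stood at 35.3 and 45.97 FPKM in P_shLSD1, against 5.35 and 2.46 FPKM in P_shCtrl (3.14 ± 0.33, adjusted p = 0.022). TNC, the adhesion-modulating glycoprotein tenascin C, stood at 183 and 126 FPKM in P_shLSD1, against 16.5 and 23.3 FPKM in P_shCtrl (2.89 ± 0.25, adjusted p = 0.017). SPP1, the secreted phosphoprotein osteopontin, stood at 121 and 157 FPKM in P_shLSD1, against 23.1 and 18.9 FPKM in P_shCtrl (2.66 ± 0.20, adjusted p = 0.016). COL5A3, a fibrillar collagen chain, stood at 11.98 and 9.59 FPKM in P_shLSD1, against 0.544 and 0.511 FPKM in P_shCtrl (2.94 ± 0.23, adjusted p = 0.017). It too was below 1 FPKM in both controls and entered the test through the hairpin libraries alone.

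PMEPA1, a negative regulator of TGF-beta and androgen receptor signalling, stood at 101 and 87.8 FPKM in P_shLSD1, against 11.8 and 13.3 FPKM in P_shCtrl (2.82 ± 0.16, adjusted p = 0.016). Both hairpin libraries lay far above both controls. LYPD3, a surface adhesion protein, rose by 2.88 ± 0.24 and DSC2, a desmosomal cadherin, by 2.51 ± 0.27. Of the 15 largest rises 4 are harder to read. The noncoding RNA LINC01173 was listed at 0 in both P_shCtrl libraries and at 7.53 and 6.29 FPKM in P_shLSD1. SNORD3C is 1 of several near-identical U3 RNA genes, H2BC11 is a member of a family of near-identical histone genes, and CTBP2P1 is a processed pseudogene that can share reads with CTBP2. For SNORD3C, H2BC11 and CTBP2P1 the authors' counting could divide reads between copies, and their calls are uncertain for that reason. CTBP2P1 also stood at 61.4 and 0 FPKM in R_shLSD1, against 0 and 10.9 FPKM in R_shCtrl.

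The largest falls included adhesion, receptor and housekeeping genes. ITGB4 (chromosome 17 from 75721328 to 75757818), the integrin subunit that anchors epithelial cells to laminin in hemidesmosomes, stood at 15.004 and 17.2 FPKM in P_shLSD1, against 104 and 86.5 FPKM in P_shCtrl (log2 fold change -2.49 ± 0.17, adjusted p = 0.016). IL1RL1, the receptor of interleukin 33, stood at 5.3 and 4.08 FPKM in P_shLSD1, against 25.7 and 27.3 FPKM in P_shCtrl (-2.28 ± 0.19, adjusted p = 0.017). FST, the activin antagonist follistatin, stood at 28.04 and 29.2 FPKM in P_shLSD1, against 120.5 and 104 FPKM in P_shCtrl (-1.93 ± 0.16, adjusted p = 0.017). In each of the 3 the hairpin libraries lay well below both controls. EI24, an endoplasmic reticulum protein of autophagy, stood at 23.4 and 24.01 FPKM in P_shLSD1, against 116 and 119 FPKM in P_shCtrl (-2.26 ± 0.14, adjusted p = 0.016). MAT2B, the regulatory subunit of methionine adenosyltransferase, stood at 11.1 and 14.6 FPKM in P_shLSD1, against 61.4 and 57.2 FPKM in P_shCtrl (-2.13 ± 0.18, adjusted p = 0.017). SSB, the La protein that binds the ends of RNA polymerase III transcripts, stood at 8.49 and 11.4 FPKM in P_shLSD1, against 48.3 and 43.8 FPKM in P_shCtrl (-2.12 ± 0.19, adjusted p = 0.017). The replicates of these broadly expressed genes differed little next to the gap between groups.

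HHEX, a homeobox factor, fell (-2.13 ± 0.15, adjusted p = 0.016), and so did LPAR1, a receptor of lysophosphatidic acid (-2.16 ± 0.26, adjusted p = 0.027), and RGS10, a regulator of G protein signalling (-2.06 ± 0.22, adjusted p = 0.022). SOX9, a neural crest and chondrocyte factor, stood at 1.96 and 2.15 FPKM in P_shLSD1, against 10.3 and 12.1 FPKM in P_shCtrl (-1.998 ± 0.21, adjusted p = 0.022), with no overlap. ARHGEF16, an exchange factor for small GTPases, changed by -1.88 ± 0.27. PTMA, the abundant nuclear protein prothymosin alpha, stood at 213 and 269.8 FPKM in P_shLSD1, against 1048 and 786 FPKM in P_shCtrl (-1.92 ± 0.26, adjusted p = 0.032), and its many processed pseudogenes can share its reads. The test was no longer passed by PTMA (adjusted p = 0.083) without P_shLSD1 replicate 1 and by ARHGEF16 (0.059) without P_shLSD1 replicate 2. The processed pseudogene HMGA1P3 and the divergent transcript C16orf95-DT were listed at 0 in both P_shLSD1 libraries, against 3.47 and 4.68 FPKM of HMGA1P3 in P_shCtrl.

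**Figure D3:**
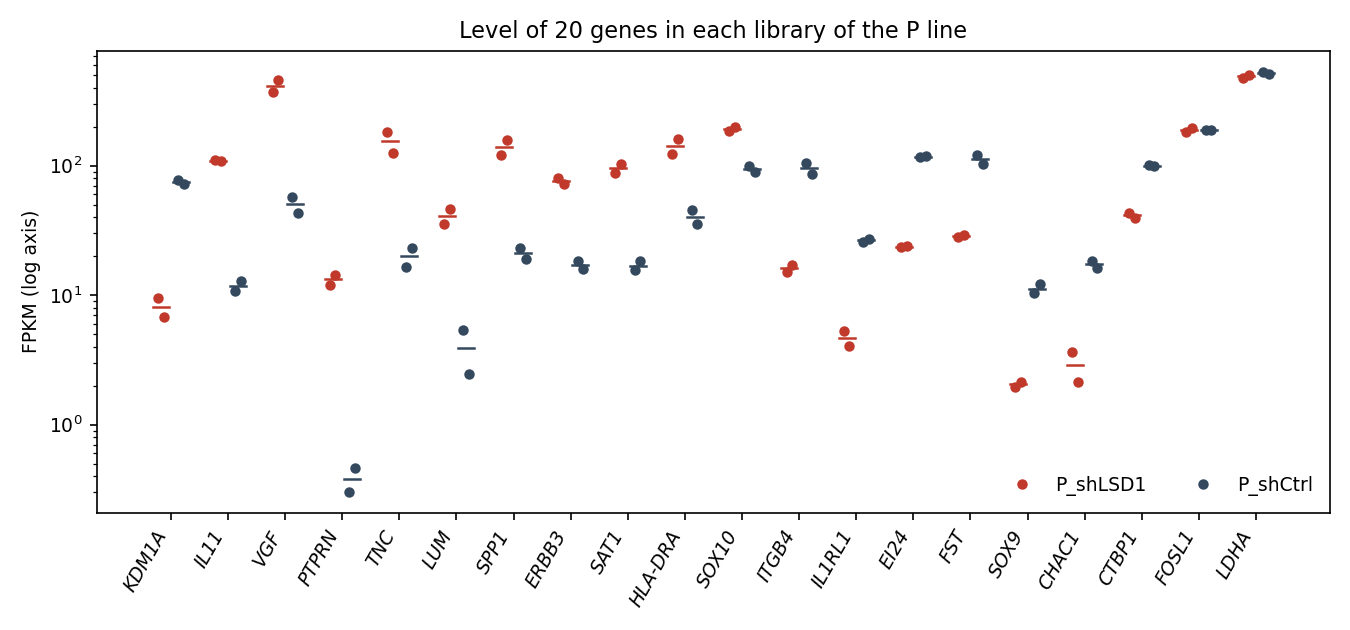
FPKM (log axis) of 20 genes in the 4 P libraries, with P_shLSD1 left of P_shCtrl in each pair. Points are libraries and short lines the means of n = 2, and the groups do not overlap in any gene shown except FOSL1, whose 4 values lie between 181 and 196 FPKM.

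Promoters are shown for 4 genes that moved strongly, each picked from those whose window holds a match. The 2 motifs marked bear on known partners of LSD1 and on the FOSL1 arm of the series. The windows run from 250 bases before to 50 bases after the annotated start, from RefSeq on GRCh38.p14, written 5′ to 3′ on the gene's strand. Capitals mark TGANTCA, the element bound by AP-1 dimers such as those with FOSL1, in the first 3, and CAGCACC, a part of the REST element, in the last. The windows lie at chr19:55370414-55370713 for IL11 (minus strand), chr12:54419217-54419516 for ITGA5 (minus strand), chr5:53480379-53480678 for FST (plus strand) and chr2:219309352-219309651 for PTPRN (minus strand).
IL11: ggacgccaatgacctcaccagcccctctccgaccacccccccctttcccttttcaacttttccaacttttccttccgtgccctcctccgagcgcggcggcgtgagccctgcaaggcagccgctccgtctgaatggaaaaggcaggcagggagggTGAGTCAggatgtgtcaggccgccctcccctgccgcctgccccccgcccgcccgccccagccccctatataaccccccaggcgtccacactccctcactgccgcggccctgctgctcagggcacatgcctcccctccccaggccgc
ITGA5: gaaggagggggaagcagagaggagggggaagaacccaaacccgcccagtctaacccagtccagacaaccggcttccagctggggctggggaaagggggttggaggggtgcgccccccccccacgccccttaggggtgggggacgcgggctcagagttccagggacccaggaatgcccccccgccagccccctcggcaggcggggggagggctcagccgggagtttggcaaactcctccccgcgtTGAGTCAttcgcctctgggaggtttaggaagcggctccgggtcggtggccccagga
FST: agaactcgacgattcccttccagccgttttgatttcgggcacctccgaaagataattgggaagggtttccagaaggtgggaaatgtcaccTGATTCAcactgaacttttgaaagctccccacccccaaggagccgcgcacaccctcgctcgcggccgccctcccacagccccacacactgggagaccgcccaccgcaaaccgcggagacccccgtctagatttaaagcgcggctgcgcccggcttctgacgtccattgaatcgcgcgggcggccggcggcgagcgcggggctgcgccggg
PTPRN: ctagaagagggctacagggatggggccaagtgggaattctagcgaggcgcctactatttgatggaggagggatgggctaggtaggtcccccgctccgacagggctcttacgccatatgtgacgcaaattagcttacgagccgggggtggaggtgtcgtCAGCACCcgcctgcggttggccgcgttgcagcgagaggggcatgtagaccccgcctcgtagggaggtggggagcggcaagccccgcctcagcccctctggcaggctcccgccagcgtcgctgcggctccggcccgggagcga
The AP-1 element begins 96 bases before the start of IL11, 6 bases before that of ITGA5 and 160 bases before that of FST. The first 2 genes rose and FST fell, so the element stands in promoters of genes that moved in either direction. Searched on both strands, it was present in 24 of 244 protein-coding genes called higher with a window (9.84%), in 437 of 9800 protein-coding genes tested (4.46%) and in 7.76% of all windows of the table. The REST letters were present in 13 of the 244 (5.33%), against 7.42% of genes tested and 7.64% of all windows. They were absent from the windows of VGF, PCSK1 and SYT1, the called genes of the REST list below, to which PTPRN does not belong. The E-box CACGTG was present in 11 of the 244 (4.51%), against 10.3% of genes tested and 7.43% of all windows. For called falls the check is void, because a window was found for 78.3% of them. No motif overlaps another in these 4 windows, and a match of letters is not a bound site.

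Of 18 tested members of the CoREST complex and related partners, 0 rose and 1 fell, where 3.42% of all genes were called. The median change was -0.13. The fall was in CTBP1, a corepressor found with CoREST, at 43.4 and 39.3 FPKM in P_shLSD1, against 102 and 99.03 FPKM in P_shCtrl (log2 fold change -1.26 ± 0.15, adjusted p = 0.026). It lay below the controls in both hairpin libraries. The call of CTBP1 was lost without P_shLSD1 replicate 2 (adjusted p = 0.058). The list gave a median of -0.23 without P_shLSD1 replicate 1, a median of -0.06 with 0 rises and 0 falls without P_shLSD1 replicate 2, a median of -0.23 without P_shCtrl replicate 1 and 2 rises and 1 fall without P_shCtrl replicate 2. HDAC1 (0.35 ± 0.16, adjusted p = 0.26), RCOR1, the core scaffold (-0.11 ± 0.25, adjusted p = 0.82), and KDM1B, the paralogue of LSD1 (-0.14 ± 0.22, adjusted p = 0.74), did not pass. HDAC2 stood at 52.8 and 64.2 FPKM in P_shLSD1, against 101 and 92.7 FPKM in P_shCtrl, apart but short of the threshold (-0.72 ± 0.17, adjusted p = 0.082). Of 7 tested transcription factors known to recruit LSD1, none passed by limma, 3 had an unadjusted p below 0.05, and the smallest p belonged to PRDM1 (0.89 ± 0.23, adjusted p = 0.091) and SNAI1 (0.73 ± 0.24, adjusted p = 0.14). None of 30 histone methyltransferases and demethylases passed either, where 3.42% of all genes did. An unadjusted p below 0.05 was found for 7 of them, as for 3629 of all 14729 genes tested. KDM2B (-0.66 ± 0.19, adjusted p = 0.11) and KDM3A (0.73 ± 0.23, adjusted p = 0.13) came nearest.

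REST-repressed neuronal and secretory granule genes had 3 called rises and 0 falls among 13 tested, and the median change was 0.86 against -0.04 over all genes. Over every gene above 0 FPKM, 22 members had 0 calls, as had all genes of that fit. They had 17 changes above 0 and 5 below, at a median of 0.51. VGF is given above. PCSK1, the prohormone convertase of secretory granules, stood at 5.36 and 5.15 FPKM in P_shLSD1, against 0.386 and 0.57 FPKM in P_shCtrl (log2 fold change 2.08 ± 0.24, adjusted p = 0.026). With both controls below 1 FPKM, PCSK1 entered the test through the hairpin libraries alone. SYT1, the calcium sensor of synaptic vesicles, stood at 7.84 and 8.28 FPKM in P_shLSD1, against 2.1 and 2.44 FPKM in P_shCtrl (1.47 ± 0.21, adjusted p = 0.035). Neither gene's groups overlapped. The call of SYT1 was lost without P_shLSD1 replicate 1 (adjusted p = 0.066) and without P_shLSD1 replicate 2 (0.074). The vesicle protein SYP (1.23 ± 0.24, adjusted p = 0.061), the granins SCG2 (0.94 ± 0.26, adjusted p = 0.11) and CHGB (0.79 ± 0.30, adjusted p = 0.19) and the adhesion molecule L1CAM (0.86 ± 0.21, adjusted p = 0.086) were higher in both hairpin libraries than in both controls without passing. Chromogranin A (CHGA) and SYT4 were at 0 in all 4 libraries, and the receptor subunit GRIN1 did not exceed 0.0831 FPKM. Without P_shLSD1 replicate 1 or 2 the list had 1 call at medians of 0.91 and 0.80.

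MHC class II genes, whose products present peptides to CD4+ T cells, had 4 called rises and 0 falls among 10 tested, with a median of 1.34. CD74, the invariant chain, stood at 517 and 585 FPKM in P_shLSD1, against 183 and 146 FPKM in P_shCtrl (log2 fold change 1.75 ± 0.21, adjusted p = 0.028). HLA-DRA, the alpha chain of HLA-DR, stood at 123 and 159 FPKM in P_shLSD1, against 45.2 and 35.6 FPKM in P_shCtrl (1.78 ± 0.21, adjusted p = 0.026). HLA-DPA1, an alpha chain of HLA-DP, stood at 112 and 111 FPKM in P_shLSD1, against 36.3 and 32.6 FPKM in P_shCtrl (1.67 ± 0.15, adjusted p = 0.017). In all 3 the lower hairpin library was more than 2-fold above the higher control. HLA-DMB, which helps to load peptides, rose as well (1.805 ± 0.23, adjusted p = 0.029). The median of the list was 1.57 without P_shLSD1 replicate 1 and 1.35 without P_shLSD1 replicate 2. It was 1.66 without P_shCtrl replicate 1 and 1.03 without P_shCtrl replicate 2. Over every gene above 0 FPKM, 13 members had 11 changes above 0 and 2 below, at a median of 1.235 and with 0 calls. CIITA, the coactivator that switches these genes on, stood at 10.7 and 7.16 FPKM in P_shLSD1, against 8.03 and 6.93 FPKM in P_shCtrl, and its groups overlapped (0.21 ± 0.24, adjusted p = 0.65). HLA-DRB1 (1.297 ± 0.33, adjusted p = 0.091) did not pass, and HLA genes are polymorphic and alike enough for reads to be divided among them. The 8 leukocyte markers summed to 34.9 and 43.3 FPKM in P_shLSD1, against 31.8 and 24.6 FPKM in P_shCtrl. Of these 5 stayed below 1 FPKM in every library, PTPRC did not exceed 0.0378 FPKM and CD3E was at 0, while LYZ rose (1.68 ± 0.25, adjusted p = 0.038). The call of LYZ was lost without P_shLSD1 replicate 2 (adjusted p = 0.076).

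MHC class I genes had 1 called rise and 0 falls among 18 tested, with a median of 0.08, beside 3.42% of all genes called. The rise was in TAPBP, tapasin of the peptide loading complex (0.896 ± 0.15, adjusted p = 0.046). The call of TAPBP was lost without P_shLSD1 replicate 1 (adjusted p = 0.14), without P_shLSD1 replicate 2 (0.12), without P_shCtrl replicate 1 (0.054) and without P_shCtrl replicate 2 (0.054). The list showed a median of 0.16 without P_shLSD1 replicate 1, 0 rises and 1 fall without P_shLSD1 replicate 2, 2 rises and 0 falls without P_shCtrl replicate 1 and a median of 0.19 with 1 rise and 1 fall without P_shCtrl replicate 2. HLA-B (1.36 ± 0.28, adjusted p = 0.065) and HLA-C (0.95 ± 0.18, adjusted p = 0.058) were higher in both hairpin libraries, and the immunoproteasome subunit PSMB8 was lower (-1.12 ± 0.22, adjusted p = 0.059), none of them past the threshold. Interferon-stimulated genes and RNA sensors had 0 calls among 28 tested by limma. An unadjusted p below 0.05 was found for 7 of them, beside 3629 of all 14729 genes tested. Their median was -0.03, against 0.12 over genes at 5 FPKM or more. The list held a median of -0.199 without P_shLSD1 replicate 1, a median of 0.07 without P_shLSD1 replicate 2, 1 rise and 1 fall without P_shCtrl replicate 1 and a median of 0.02 without P_shCtrl replicate 2. IRF9, a subunit of the interferon-activated complex ISGF3, stood at 14.6 and 13.1 FPKM in P_shLSD1, against 8.68 and 6.66 FPKM in P_shCtrl (0.79 ± 0.20, adjusted p = 0.094). OAS1, a sensor of double-stranded RNA, stood at 1.58 and 1.92 FPKM in P_shLSD1, against 3.91 and 9.03 FPKM in P_shCtrl (-1.36 ± 0.38, adjusted p = 0.11). These 2 genes with the smallest p differed in opposite directions, and neither passed.

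Melanocyte differentiation genes had 1 called rise among 10 tested, SOX10, with a median of 0.31, and the pigment enzymes TYR, TYRP1 and DCT stayed below 0.6 FPKM in every library. Summed over the 9 melanocytic markers, the level was 198 and 212 FPKM in P_shLSD1, against 111 and 104 FPKM in P_shCtrl, nearly all of it SOX10, and 6 of the 9 stayed below 1 FPKM in every library. Of 15 neural crest genes 1 rose and 1 fell, and the median was 0.60, against 0.38 over every gene above 0 FPKM. The list had a median of 0.39 without P_shLSD1 replicate 1, 2 rises and 1 fall without P_shLSD1 replicate 2 and 3 rises and 1 fall without P_shCtrl replicate 2. With 4 libraries the rise was in ERBB3, the neuregulin receptor, at 79.99 and 72.8 FPKM in P_shLSD1, against 18.5 and 15.96 FPKM in P_shCtrl (log2 fold change 2.09 ± 0.16, adjusted p = 0.016), and the fall was in SOX9, given above. The glial cadherin CDH19 (1.37 ± 0.33, adjusted p = 0.084), the crest factor FOXD3 (0.99 ± 0.25, adjusted p = 0.094) and the nerve growth factor receptor NGFR (0.11 ± 0.19, adjusted p = 0.77) did not pass. ERBB3 was also the single call among 19 receptor tyrosine kinases, beside 3.42% of all genes called. Their median was 0.10, and -0.01 after removal of the length and GC trends. The list gave a median of -0.02 without P_shLSD1 replicate 1, a median of 0.22 without P_shLSD1 replicate 2, a median of -0.195 without P_shCtrl replicate 1 and a median of 0.402 with 2 rises and 0 falls without P_shCtrl replicate 2.

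The genes of the dedifferentiated, AXL-high state had 5 called rises and 0 falls among 26 tested, with a median of 0.27, although AXL itself did not pass. The list showed a median of 0.195 without P_shLSD1 replicate 1 and of 0.45 without P_shCtrl replicate 2. NT5E, the ectonucleotidase CD73 that makes adenosine, stood at 76.3 and 75.9 FPKM in P_shLSD1, against 20.5 and 23.8 FPKM in P_shCtrl (log2 fold change 1.74 ± 0.15, adjusted p = 0.017). TGFBI, a matrix protein induced by TGF-beta, stood at 253 and 296 FPKM in P_shLSD1, against 85.3 and 76.8 FPKM in P_shCtrl (1.75 ± 0.18, adjusted p = 0.022). Both were tight within groups and apart between them. PLAUR, the urokinase receptor (1.65 ± 0.24, adjusted p = 0.037), and TNC rose too. The caveolar protein CAV1 (-0.75 ± 0.18, adjusted p = 0.085) and the matricellular CCN1 (-0.76 ± 0.17, adjusted p = 0.076) were lower in both hairpin libraries without passing.

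Mesenchymal and matrix genes had 5 called rises and 0 falls among 21 tested, with a median of 0.55. SPARC, an abundant collagen-binding glycoprotein, stood at 1749 and 1782 FPKM in P_shLSD1, against 526 and 557 FPKM in P_shCtrl (log2 fold change 1.702 ± 0.23, adjusted p = 0.032). COL5A1, a fibrillar collagen chain, stood at 11.4 and 7.86 FPKM in P_shLSD1, against 1.06 and 1.66 FPKM in P_shCtrl (2.16 ± 0.28, adjusted p = 0.03). FBN1, the microfibril protein fibrillin, stood at 23.2 and 20.6 FPKM in P_shLSD1, against 6.63 and 8.92 FPKM in P_shCtrl (1.396 ± 0.20, adjusted p = 0.036). The groups of all 3 were apart. Without P_shLSD1 replicate 1 the list had 2 calls. The threshold was missed by SPARC (adjusted p = 0.094) and FBN1 (0.061) without P_shLSD1 replicate 1 and by SPARC (0.089) without P_shLSD1 replicate 2. The basement membrane collagen COL4A1 also rose (1.06 ± 0.16, adjusted p = 0.037), while fibronectin FN1 (0.92 ± 0.18, adjusted p = 0.061) and vimentin VIM (-0.29 ± 0.28, adjusted p = 0.56) did not pass. The summed level of 8 fibroblast markers moved the same way, at 45.7 and 56.9 FPKM in P_shLSD1, against 8.54 and 6.69 FPKM in P_shCtrl, and LUM made up most of it. The fibroblast collagen COL1A2 was at 0 and COL3A1 at 0.107 FPKM or less in all 4 libraries, and LUM and the proteoglycan DCN (1.69 ± 0.27, adjusted p = 0.04) were the called markers; the part of other cells in the matrix result was not tested. The call of COL4A1 was lost without P_shLSD1 replicate 1 (adjusted p = 0.066) and without P_shLSD1 replicate 2 (0.071).

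Epithelial junction genes had 2 rises and 2 falls among 13 tested and a median of -0.19. The list held 1 rise and 1 fall without P_shLSD1 replicate 1, 1 rise and 1 fall without P_shLSD1 replicate 2, a median of -0.37 without P_shCtrl replicate 1 and a median of 0.06 without P_shCtrl replicate 2. The simple keratin KRT8 stood at 63.5 and 66.4 FPKM in P_shLSD1, against 229.9 and 198 FPKM in P_shCtrl (log2 fold change -1.700 ± 0.17, adjusted p = 0.022). Its partner KRT18 stood at 198 and 252 FPKM in P_shLSD1, against 717 and 551 FPKM in P_shCtrl (-1.49 ± 0.25, adjusted p = 0.044). Both fell, their annotated spans overlap on opposite strands, and both have many processed pseudogenes, so their reads are not fully separable. The call of KRT18 was lost without P_shLSD1 replicate 1 (adjusted p = 0.16) and without P_shLSD1 replicate 2 (0.073). The tight junction protein CLDN4 rose (1.94 ± 0.24, adjusted p = 0.028) beside DSC2, and E-cadherin (CDH1) was at 0 in all 4 libraries. DSC2 stood at 8.11 and 5.52 FPKM in P_shLSD1, against 0.343 and 0.356 FPKM in P_shCtrl. With both controls below 1 FPKM, DSC2 entered the test through the hairpin libraries alone. The 9 keratinocyte markers summed to 95.5 and 140 FPKM in P_shLSD1, against 96.8 and 67.3 FPKM in P_shCtrl, 7 of them stayed below 1 FPKM and 4 were at 0, and KRT14 rose (1.58 ± 0.26, adjusted p = 0.043). The call of KRT14 was lost without P_shLSD1 replicate 2 (adjusted p = 0.074).

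Integrins and laminins, the receptors and ligands of cell-matrix adhesion, had 7 called rises and 1 fall among 22 tested, the most calls of the lists examined, and their median was 0.79. ITGA5, the fibronectin receptor subunit (chromosome 12 from 54395261 to 54419460), stood at 117 and 116 FPKM in P_shLSD1, against 32.8 and 28.8 FPKM in P_shCtrl (log2 fold change 1.89 ± 0.15, adjusted p = 0.017). ITGA7, a laminin-binding subunit, stood at 12.1 and 10.8 FPKM in P_shLSD1, against 1.51 and 1.5 FPKM in P_shCtrl (2.31 ± 0.21, adjusted p = 0.017). ITGB8, a subunit of the receptor that activates latent TGF-beta, stood at 25.1 and 20.7 FPKM in P_shLSD1, against 4.72 and 6.38 FPKM in P_shCtrl (1.87 ± 0.21, adjusted p = 0.026). None of these overlapped between groups, and ITGA7 overlaps the more abundant BLOC1S1 on the opposite strand. Significance was lost by ITGA4 (adjusted p = 0.078), ITGAV (0.13) and LAMB3 (0.057) without P_shLSD1 replicate 1, by ITGAV (0.059) and LAMB2 (0.075) without P_shLSD1 replicate 2 and by ITGAV (0.055) without P_shCtrl replicate 1. The other rises were in LAMB3 (1.33), ITGA4 (1.26), LAMB2 (1.14) and ITGAV (1.02), and the fall was in ITGB4. ITGB1, the common beta chain, did not pass (0.56 ± 0.18, adjusted p = 0.13). Without P_shLSD1 replicate 1 the list had 4 rises, and without P_shCtrl replicate 2 it had 10.

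Matrix proteases and their inhibitors had 3 called rises and 0 falls among 20 tested, with a median of 0.74. ADAM19, a membrane-bound sheddase, stood at 58.6 and 42.9 FPKM in P_shLSD1, against 7.05 and 10.9 FPKM in P_shCtrl (log2 fold change 2.38 ± 0.26, adjusted p = 0.024), and MMP1, the interstitial collagenase, stood at 7.11 and 7.92 FPKM in P_shLSD1, against 2.11 and 2.54 FPKM in P_shCtrl (1.36 ± 0.22, adjusted p = 0.041). Both were higher in each hairpin library than in each control. The call of MMP1 was lost without P_shLSD1 replicate 1 (adjusted p = 0.082) and without P_shLSD1 replicate 2 (0.096). The list had 5 rises and 0 falls without P_shCtrl replicate 2. The membrane protease MMP14 (0.04 ± 0.17, adjusted p = 0.91) and the gelatinase MMP2 (0.43 ± 0.16, adjusted p = 0.17) did not pass.

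TGF-beta and BMP signalling genes had 3 rises and 2 falls among 23 tested, and the median was 0.41. The list gave 1 rise and 1 fall without P_shLSD1 replicate 1, 0 rises and 2 falls without P_shLSD1 replicate 2 and 5 rises and 2 falls without P_shCtrl replicate 2. With eBayes without trend and robust fitting there were 0 rises. The receptor TGFBR2 stood at 27.4 and 24.04 FPKM in P_shLSD1, against 9.85 and 12.8 FPKM in P_shCtrl (log2 fold change 1.13 ± 0.19, adjusted p = 0.046). ID3, a BMP target that blocks DNA binding by helix-loop-helix proteins, stood at 216 and 294 FPKM in P_shLSD1, against 99.5 and 69.2 FPKM in P_shCtrl (1.59 ± 0.26, adjusted p = 0.043). BMP4, a ligand, stood at 1.53 and 1.83 FPKM in P_shLSD1, against 6.9 and 7.23 FPKM in P_shCtrl (-1.59 ± 0.22, adjusted p = 0.034). BMP4 and FST thus fell while TGFBR2 and ID3 rose, each with the groups apart. The call was not kept by BMP4 (adjusted p = 0.056), TGFBR2 (0.1) and ID2 (0.061) without P_shLSD1 replicate 1, by ID3 (0.066), TGFBR2 (0.063) and ID2 (0.12) without P_shLSD1 replicate 2 and by ID2 (0.051) without P_shCtrl replicate 1. ID2 rose (1.46 ± 0.26, adjusted p = 0.049), and ID1 (1.07 ± 0.25, adjusted p = 0.082), the antagonist NOG (-0.86 ± 0.20, adjusted p = 0.082) and the activin subunit INHBA (0.85 ± 0.20, adjusted p = 0.082) did not pass.

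YAP and TEAD targets went both ways, with 2 rises (NT5E and IGFBP3) and 2 falls among 23 tested and a median of -0.32. ANKRD1, a stretch-responsive repeat protein, stood at 2.84 and 3.03 FPKM in P_shLSD1, against 9.1 and 7.68 FPKM in P_shCtrl (log2 fold change -1.25 ± 0.21, adjusted p = 0.045). DDAH1, an enzyme of methylarginine breakdown, stood at 5.64 and 4.43 FPKM in P_shLSD1, against 15.4 and 19.3 FPKM in P_shCtrl (-1.604 ± 0.21, adjusted p = 0.032). The classical target CCN2 (0.35 ± 0.16, adjusted p = 0.25) did not pass. The list showed a median of -0.198 with 2 rises and 1 fall without P_shLSD1 replicate 2 and a median of -0.01 with 2 rises and 4 falls without P_shCtrl replicate 2. The call of ANKRD1 was lost without P_shLSD1 replicate 1 (adjusted p = 0.1), without P_shLSD1 replicate 2 (0.08) and without P_shCtrl replicate 1 (0.074). IGFBP3, a binding protein of insulin-like growth factors, stood at 132 and 145 FPKM in P_shLSD1, against 48.4 and 48.4 FPKM in P_shCtrl (1.497 ± 0.15, adjusted p = 0.022). With it in the insulin-like growth factor axis, where 2 of 12 tested genes rose and 1 fell at a median of 0.14, IGFBP7 rose (1.07 ± 0.17, adjusted p = 0.041) and IGFBP4 fell (-1.34 ± 0.21, adjusted p = 0.04). Calls were lost by IGFBP4 (adjusted p = 0.14) without P_shLSD1 replicate 1 and by IGFBP4 (0.074) and IGFBP7 (0.093) without P_shLSD1 replicate 2. The list held a median of 0.01 with 2 rises and 0 falls without P_shLSD1 replicate 1, a median of 0.24 with 1 rise and 0 falls without P_shLSD1 replicate 2, a median of 0.06 without P_shCtrl replicate 1 and a median of 0.31 without P_shCtrl replicate 2.

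NF-kB targets and cytokines had 3 rises and 1 fall among 25 tested, and the median was 0.14. The list had 3 rises and 0 falls without P_shLSD1 replicate 1, a median of 0.23 with 3 rises and 0 falls without P_shLSD1 replicate 2 and 3 rises and 2 falls without P_shCtrl replicate 2. IL1A, the alarmin interleukin 1 alpha, stood at 17.8 and 18.5 FPKM in P_shLSD1, against 5.84 and 5.75 FPKM in P_shCtrl (log2 fold change 1.49 ± 0.17, adjusted p = 0.026). IL24, a cytokine of the IL-10 family, stood at 70.2 and 80.5 FPKM in P_shLSD1, against 31.7 and 25.4 FPKM in P_shCtrl (1.38 ± 0.18, adjusted p = 0.03), and the fall was in TNFAIP2 (-0.97 ± 0.15, adjusted p = 0.038). The call of TNFAIP2 was lost without P_shLSD1 replicate 1 (adjusted p = 0.076) and without P_shLSD1 replicate 2 (0.094). Neither CXCL8 (0.14 ± 0.17, adjusted p = 0.66) nor the inhibitor NFKBIA (0.49 ± 0.26, adjusted p = 0.32) passed. Of 14 AP-1 subunits and MAF factors, JDP2, a repressor that dimerises with JUN, was the single call, beside 3.42% of all genes. It stood at 2.67 and 2.03 FPKM in P_shLSD1, against 11.6 and 10.5 FPKM in P_shCtrl (-1.85 ± 0.22, adjusted p = 0.026). FOS (1.19 ± 0.26, adjusted p = 0.069) and JUN (0.197 ± 0.16, adjusted p = 0.49) did not pass, and the list's median was 0.33. The list gave a median of 0.19 without P_shLSD1 replicate 2. Of 23 MAPK output genes the early growth response factor EGR3 was the single call, where 3.42% of all genes were called. It stood at 12.4 and 8.24 FPKM in P_shLSD1, against 1.48 and 1.24 FPKM in P_shCtrl (2.24 ± 0.27, adjusted p = 0.026). The median of the list was 0.36. The list showed 2 rises and 0 falls without P_shCtrl replicate 2.

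Of 30 genes of DNA replication and the G1/S transition, 0 rose and 3 fell, where 1.22% of all genes tested were called lower. The median was -0.66, and 0 of the 30 changes lay above 0. An unadjusted p below 0.05 by limma was found for 24 of the 30, beside 3629 of all 14729 genes tested. With eBayes without trend and robust fitting the list had 0 calls. MCM2, a helicase subunit, stood at 49.9 and 52.7 FPKM in P_shLSD1, against 94.5 and 97.4 FPKM in P_shCtrl (log2 fold change -0.89 ± 0.15, adjusted p = 0.043). MCM6, another subunit, stood at 20.5 and 20.2 FPKM in P_shLSD1, against 39.1 and 40.7 FPKM in P_shCtrl (-0.93 ± 0.14, adjusted p = 0.038). GINS2, which joins the helicase at the fork, stood at 8.004 and 9.85 FPKM in P_shLSD1, against 23.3 and 19.2 FPKM in P_shCtrl (-1.16 ± 0.20, adjusted p = 0.045). In these 3 both hairpin libraries lay below both controls. The test was no longer passed by MCM6 (adjusted p = 0.09), MCM2 (0.16) and GINS2 (0.092) without P_shLSD1 replicate 1, by MCM6 (0.09) and MCM2 (0.11) without P_shLSD1 replicate 2 and by GINS2 (0.058) without P_shCtrl replicate 1. No call was left in the list without P_shLSD1 replicate 1 and 1 was left without replicate 2, while the median stayed at -0.62 and -0.69. The licensing factor CDT1 (-0.76 ± 0.16, adjusted p = 0.065), the clamp PCNA (-0.66 ± 0.21, adjusted p = 0.13) and the reductase subunit RRM2 (-0.21 ± 0.16, adjusted p = 0.47) did not pass. Of 28 mitosis genes 1 fell, the spindle checkpoint protein MAD2L1 (-1.46 ± 0.22, adjusted p = 0.037), with a median of -0.21. With eBayes without trend and robust fitting it missed the threshold (adjusted p = 0.061), and 1 of 28 stands beside 3.42% of all genes called. The list held 0 rises and 2 falls without P_shCtrl replicate 2. None of 9 tested histone genes passed by limma, 4 had an unadjusted p below 0.05, H2BC12 (1.26 ± 0.24, adjusted p = 0.054) and H2BC4 (1.24 ± 0.30, adjusted p = 0.083) being nearest. The list had 1 rise and 0 falls without P_shLSD1 replicate 1, 2 rises and 0 falls without P_shCtrl replicate 1 and 1 rise and 0 falls without P_shCtrl replicate 2. Of 25 p53 targets 1 fell, beside 3.42% of all genes called. It was the stress cytokine GDF15 (-1.51 ± 0.26, adjusted p = 0.048). The list gave 0 rises and 0 falls without P_shLSD1 replicate 1, 0 rises and 2 falls without P_shCtrl replicate 1 and 2 rises and 3 falls without P_shCtrl replicate 2. The call of GDF15 was lost without P_shLSD1 replicate 1 (adjusted p = 0.065).

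The ATF4 and unfolded protein response genes, which meet amino acid and folding stress, had 0 rises and 5 falls among 28 tested, with a median of -0.46. CHAC1, an enzyme that degrades glutathione, stood at 3.66 and 2.15 FPKM in P_shLSD1, against 18.3 and 16.2 FPKM in P_shCtrl (log2 fold change -2.25 ± 0.25, adjusted p = 0.026). ASNS, asparagine synthetase, stood at 32.5 and 37.5 FPKM in P_shLSD1, against 113 and 91.4 FPKM in P_shCtrl (-1.52 ± 0.18, adjusted p = 0.026). TRIB3, a pseudokinase induced by ATF4, stood at 35.9 and 41.6 FPKM in P_shLSD1, against 98.96 and 90.1 FPKM in P_shCtrl (-1.27 ± 0.16, adjusted p = 0.028). Each control library of all 3 lay more than 2-fold above each hairpin library. PSAT1, of serine synthesis (-1.21 ± 0.17, adjusted p = 0.034), and MTHFD2, of mitochondrial folate metabolism (-1.17 ± 0.16, adjusted p = 0.034), were the other falls. Without P_shLSD1 replicate 1 the list had 2 falls and a median of -0.26, and without P_shLSD1 replicate 2 it had 3. The threshold was missed by TRIB3 (adjusted p = 0.061), PSAT1 (0.12) and MTHFD2 (0.12) without P_shLSD1 replicate 1 and by PSAT1 (0.087) and MTHFD2 (0.09) without P_shLSD1 replicate 2. The list was not uniform: ATF4 itself (-0.35 ± 0.22, adjusted p = 0.4) did not pass, and ATF3 (0.85 ± 0.19, adjusted p = 0.073) and the chaperone DNAJB9 (1.01 ± 0.19, adjusted p = 0.054) were higher in both hairpin libraries without passing.

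Lysosome and autophagy genes had 5 called rises and 0 falls among 26 tested, and the median was 0.59. GABARAPL1, which conjugates to autophagosome membranes, stood at 55.7 and 55.5 FPKM in P_shLSD1, against 24.4 and 22.7 FPKM in P_shCtrl (log2 fold change 1.205 ± 0.14, adjusted p = 0.026). LAMP2, a lysosomal membrane protein, stood at 45.5 and 43.6 FPKM in P_shLSD1, against 20.2 and 22.5 FPKM in P_shCtrl (1.03 ± 0.15, adjusted p = 0.035). CTSA, a lysosomal carboxypeptidase, stood at 114 and 113 FPKM in P_shLSD1, against 55.5 and 57.01 FPKM in P_shCtrl (0.997 ± 0.15, adjusted p = 0.037), and the proton pump subunit ATP6V1A (0.94 ± 0.14, adjusted p = 0.038) and WIPI1, which acts in autophagosome formation (1.47 ± 0.24, adjusted p = 0.043), also rose. All 5 had groups that did not overlap. Significance was lost by LAMP2 (adjusted p = 0.08), CTSA (0.1), ATP6V1A (0.1) and WIPI1 (0.062) without P_shLSD1 replicate 1 and by LAMP2 (0.066), CTSA (0.089), ATP6V1A (0.083) and WIPI1 (0.062) without P_shLSD1 replicate 2. Without P_shLSD1 replicate 1 or 2 the list had 1 call, at medians of 0.59 and 0.54.

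Among hypoxia-induced genes 5 rose and 0 fell of 20 tested, and the median was 0.23. ANGPTL4, a secreted inhibitor of lipoprotein lipase, stood at 15.4 and 18.5 FPKM in P_shLSD1, against 2.26 and 2.7 FPKM in P_shCtrl (log2 fold change 2.37 ± 0.21, adjusted p = 0.017). CA9, a carbonic anhydrase at the cell surface, stood at 18.2 and 22.4 FPKM in P_shLSD1, against 3.87 and 1.84 FPKM in P_shCtrl (2.51 ± 0.31, adjusted p = 0.028). The collagen-modifying hydroxylases P4HA2 (1.25 ± 0.18, adjusted p = 0.034), PLOD2 (0.89 ± 0.14, adjusted p = 0.042) and P4HA1 (0.92 ± 0.15, adjusted p = 0.044) were the other rises, and VEGFA (-0.03 ± 0.14, adjusted p = 0.92) and SLC2A1 (-0.24 ± 0.16, adjusted p = 0.41) did not pass. Without P_shLSD1 replicate 1 the list had 3 calls and a median of 0.42, and without P_shLSD1 replicate 2 it had 2 and a median of 0.14. The call was not kept by PLOD2 (adjusted p = 0.13) and P4HA1 (0.092) without P_shLSD1 replicate 1 and by P4HA2 (0.071), PLOD2 (0.087) and P4HA1 (0.12) without P_shLSD1 replicate 2. Glycolysis and lactate transport genes had 2 rises and 2 falls among 27 tested and a median of 0.05. The list showed 1 rise and 1 fall without P_shLSD1 replicate 1, 1 rise and 1 fall without P_shLSD1 replicate 2, 1 rise and 1 fall without P_shCtrl replicate 1 and a median of 0.01 without P_shCtrl replicate 2. PFKFB4, which sets fructose 2,6-bisphosphate, stood at 30.1 and 24.7 FPKM in P_shLSD1, against 6.18 and 7.56 FPKM in P_shCtrl (1.85 ± 0.19, adjusted p = 0.022), and HK2, the inducible hexokinase, stood at 6.92 and 5.16 FPKM in P_shLSD1, against 17.3 and 20.9 FPKM in P_shCtrl (-1.52 ± 0.21, adjusted p = 0.035). These enzymes moved in opposite directions, as did the transporters SLC2A3 (0.94 ± 0.16, adjusted p = 0.044) and SLC16A3 (-1.03 ± 0.17, adjusted p = 0.044). PFKFB4 (mean 17.2 FPKM) overlaps UCN2 (6.07 FPKM) on the same strand, and UCN2 was itself called higher (2.30). CA9 (11.6 FPKM) overlaps ARHGEF39 (10.4 FPKM) on the opposite strand. The reads of each pair may not be told apart. Calls were lost by SLC16A3 (adjusted p = 0.07) and SLC2A3 (0.11) without P_shLSD1 replicate 1, by SLC16A3 (0.094) and SLC2A3 (0.12) without P_shLSD1 replicate 2 and by SLC16A3 (0.067) and SLC2A3 (0.059) without P_shCtrl replicate 1.

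Ferroptosis genes gave 1 large rise. SAT1, the spermidine and spermine acetyltransferase whose activity promotes lipid peroxidation (chromosome X from 23783173 to 23786226), stood at 88.3 and 104 FPKM in P_shLSD1, against 15.6 and 18.3 FPKM in P_shCtrl (log2 fold change 2.44 ± 0.17, adjusted p = 0.016). With CHAC1 lower, 1 of 15 promoting genes rose and 1 fell at a median of 0.16. The list held a median of 0.11 without P_shCtrl replicate 1 and a median of 0.31 with 2 rises and 1 fall without P_shCtrl replicate 2. None of 22 defence genes passed by limma, 1 had an unadjusted p below 0.05, and SLC7A11 and TXNRD1 (-0.63 ± 0.17, adjusted p = 0.11) had the smallest p. NRF2 targets had 1 fall among 21, beside 3.42% of all genes called. It was the aldo-keto reductase AKR1C2 (-1.46 ± 0.25, adjusted p = 0.045), which has near-identical paralogues. The call of AKR1C2 was lost without P_shLSD1 replicate 2 (adjusted p = 0.088) and without P_shCtrl replicate 1 (0.065). None of 27 cholesterol and lipid synthesis genes passed by limma, FASN (-0.802 ± 0.16, adjusted p = 0.059) and SC5D (-0.87 ± 0.22, adjusted p = 0.09) being nearest. The list had 1 rise and 0 falls without P_shLSD1 replicate 2 and 0 rises and 1 fall without P_shCtrl replicate 2. None of 17 lactylation genes passed, where HDAC2 and AARS1 (-0.69 ± 0.17, adjusted p = 0.086) were nearest. The unadjusted p was below 0.05 for 5 of the 27 and 3 of the 17, beside 3629 of all 14729 genes tested.

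The 13 mitochondrially encoded mRNAs had 0 calls by limma, 5 had an unadjusted p below 0.05 and the median was 0.70. They made up 12.9% and 10.99% of all FPKM in P_shLSD1, against 8.05% and 7.47% in P_shCtrl, and the groups did not overlap in that share. MT-ND6 (1.16 ± 0.26, adjusted p = 0.076) and MT-ND5 (0.74 ± 0.24, adjusted p = 0.14) came nearest to the threshold. Nuclear genes of oxidative phosphorylation had 0 calls among 26, 1 unadjusted p below 0.05 and a median of 0.01, which was -0.02 with the trends removed, with UQCRC2 (-0.57 ± 0.14, adjusted p = 0.09) and NDUFA9 (-0.53 ± 0.25, adjusted p = 0.27) nearest. The list gave a median of 0.10 without P_shLSD1 replicate 1, a median of -0.14 without P_shLSD1 replicate 2, a median of 0.11 without P_shCtrl replicate 1 and a median of -0.22 without P_shCtrl replicate 2. Cytosolic ribosomal protein genes had 0 calls among 30, 0 with an unadjusted p below 0.05, and a median of -0.13, where RPS23 (-0.51 ± 0.33, adjusted p = 0.4) and RPL5 (-0.35 ± 0.27, adjusted p = 0.47) were nearest. The list showed a median of 0.06 without P_shLSD1 replicate 1, a median of -0.32 without P_shLSD1 replicate 2, a median of 0.15 without P_shCtrl replicate 1 and a median of -0.39 without P_shCtrl replicate 2. Where FPKM are scaled by the library total, a larger mitochondrial share lowers the other FPKM. How the deposited FPKM were scaled is not known here, and the part of the mitochondrial share in single results was not tested.

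**Figure D4:**
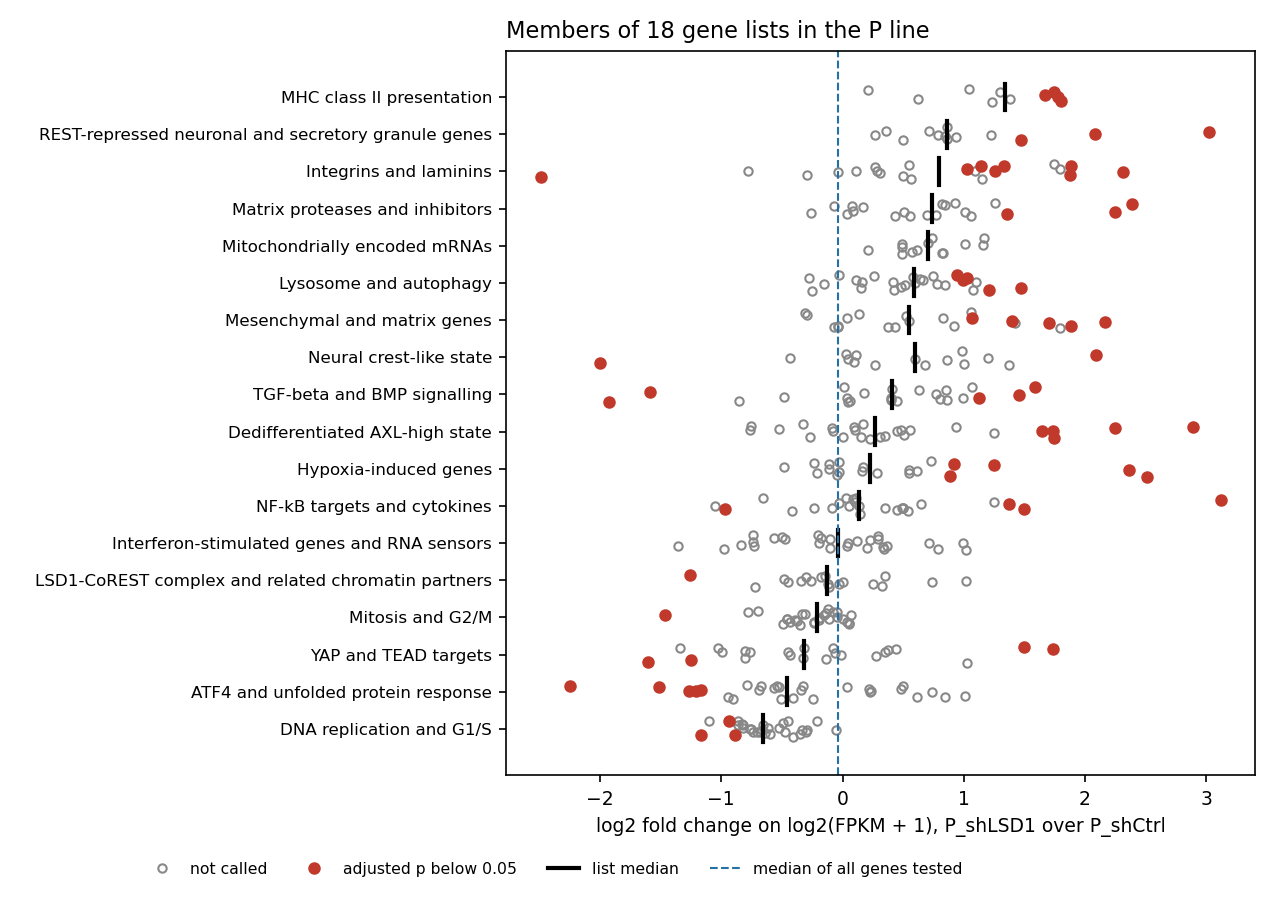
Log2 fold change of P_shLSD1 over P_shCtrl on log2(FPKM + 1) for the tested members of 18 gene lists, 1 point a gene, filled where the adjusted p is below 0.05, with the list median as a bar and the median of all genes tested (-0.04) as a dashed line. MHC class II genes lie furthest to the right by median (1.34) and DNA replication genes furthest to the left (-0.66).

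The hairpin effect was then set against that in the R line, whose libraries sit in a separate table. There 3118 of 14293 genes tested passed (21.8%), 1347 higher (9.42%) and 1771 lower (12.4%), with KDM1A at 10.1 and 11.1 FPKM in R_shLSD1, against 73.3 and 76.5 FPKM in R_shCtrl. Of the genes called in P, 435 were tested in R, and 240 of them (55.2%) were called there in the same direction and 20 in the opposite one. The 240 and 20 together are 8.82% of the 2949 genes called in R among those tested in both lines. Of 279 rises in P, 146 were called higher and 15 lower in R; of 156 falls, 94 were called lower and 5 higher. Across the 13250 genes tested in both lines the 2 sets of log2 fold changes had a Pearson r of 0.41, as a description over genes, which are not independent replicates.

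Several broadly expressed genes that fell in P were also called lower in R. EI24 stood at 29.9 and 26.1 FPKM in R_shLSD1, against 150.2 and 149 FPKM in R_shCtrl, a change of -2.38 ± 0.09 beside -2.26 ± 0.14 in P. MAT2B changed by -2.13 ± 0.18 in P and -2.38 ± 0.16 in R, and SSB by -2.12 ± 0.19 in P and -2.29 ± 0.12 in R. Their P minus R differences had adjusted p-values of 0.75, 0.71 and 0.77, which does not show that they are equal. The corepressor CTBP1 changed by -1.26 ± 0.15 in P and -1.35 ± 0.12 in R, TRIB3 by -1.27 ± 0.16 in P and -1.27 ± 0.11 in R, and ID3 by 1.59 ± 0.26 in P and 1.67 ± 0.07 in R. Among the large rises, SPP1 changed by 2.66 ± 0.20 in P and 2.31 ± 0.09 in R, and SPARC by 1.702 ± 0.23 in P and 1.54 ± 0.07 in R. VGF rose in both lines on very different levels: in R it stood at 16.7 and 14.1 FPKM in R_shLSD1, against 2.69 and 2.04 FPKM in R_shCtrl.

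The difference of the 2 effects, P minus R, was tested in 1 fit over the 8 libraries. It passed for 303 of 16075 genes (1.88%), 200 above 0 (1.24%) and 103 below 0 (0.641%). Among the 504 genes called in P, 112 passed. They were 90 rises with a larger or opposite effect in P, 2 rises with a smaller effect in P and 20 falls. These falls were deeper in P or opposite in R, as for ANKRD1 and HMGA1P3. The count was 52 without P_shLSD1 replicate 1, 62 without P_shLSD1 replicate 2, 132 without P_shCtrl replicate 1 and 135 without P_shCtrl replicate 2. Left out in R, it was 37 without R_shLSD1 replicate 1, 54 without R_shLSD1 replicate 2, 44 without R_shCtrl replicate 1 and 31 without R_shCtrl replicate 2.

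IL11 was the largest difference above 0. In R it stood at 78.8 and 84.4 FPKM in R_shLSD1, against 205 and 209 FPKM in R_shCtrl, so it was lower with the hairpin there (change -1.33 ± 0.06) and higher in P (P minus R 4.45 ± 0.16, adjusted p = 0.00015). IL1A did the same, at 0.851 and 1.11 FPKM in R_shLSD1, against 9.16 and 7.55 FPKM in R_shCtrl (P minus R 3.73 ± 0.24, adjusted p = 0.0026). So did MYEOV, a gene named for myeloma overexpression, at 36.97 and 27.9 FPKM in P_shLSD1, against 10.3 and 10.1 FPKM in P_shCtrl, and at 5.93 and 4.4 FPKM in R_shLSD1, against 34.4 and 26.9 FPKM in R_shCtrl (P minus R 3.93 ± 0.29, adjusted p = 0.0031). PMEPA1 was lower with the hairpin in R as well, at 2.2 and 1.05 FPKM in R_shLSD1, against 5.13 and 5.13 FPKM in R_shCtrl (P minus R 4.08 ± 0.31, adjusted p = 0.0039). All 4 were called in opposite directions in the 2 lines. SNORD3C completes the 5 largest differences above 0 (P minus R 4.12 ± 0.51, adjusted p = 0.015) and has near-identical copies.

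The largest differences below 0 ran the other way. ANKRD1 stood at 51.2 and 45.1 FPKM in R_shLSD1, against 6.21 and 7.51 FPKM in R_shCtrl, and so rose in R where it fell in P (P minus R -3.897 ± 0.23, adjusted p = 0.0024). CPA4, a carboxypeptidase, stood at 56.2 and 56.9 FPKM in P_shLSD1, against 71.5 and 68.8 FPKM in P_shCtrl, a change that did not pass in P, and at 17.04 and 16.6 FPKM in R_shLSD1, against 2.1 and 0.535 FPKM in R_shCtrl (P minus R -3.34 ± 0.40, adjusted p = 0.014). MMP12, the macrophage elastase, was below 1 FPKM in all P libraries and stood at 26.2 and 26.8 FPKM in R_shLSD1, against 1.02 and 0.5 FPKM in R_shCtrl (P minus R -3.21 ± 0.33, adjusted p = 0.0077). The processed pseudogenes HMGA1P3 (P minus R -3.89 ± 0.32, adjusted p = 0.0046) and SNRPGP15 (P minus R -3.56 ± 0.42, adjusted p = 0.013) complete the 5, and their reads may belong to parent genes. DUSP6, not called in P, stood at 12.9 and 8.64 FPKM in R_shLSD1, against 56.7 and 48.6 FPKM in R_shCtrl, and the difference passed (P minus R 1.76 ± 0.25, adjusted p = 0.023).

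Some differences between lines rest on genes that the R line hardly expresses. HLA-DRA, SOX10 and FST were at 0.0474 FPKM or less in every R library, and ITGB8, COL5A3 and IL1RL1 at 0.509 FPKM or less, so P minus R for these is close to the P effect alone, and for SOX10 it missed the threshold (1.02 ± 0.19, adjusted p = 0.0503). Within the MHC class II list, HLA-DPA1 was expressed in R, at 5.83 and 6.85 FPKM in R_shLSD1, against 9.67 and 9.56 FPKM in R_shCtrl, and differed (P minus R 2.21 ± 0.18, adjusted p = 0.0039), and CD74 differed as well, at 23.96 and 27.6 FPKM in R_shLSD1, against 22.3 and 18.4 FPKM in R_shCtrl (P minus R 1.42 ± 0.22, adjusted p = 0.031). NT5E, ANGPTL4 and TGFBI were called lower in R while higher in P, with P minus R of 2.37, 2.91 and 1.94. None of the 26 lysosome, 30 DNA replication or 13 mitochondrially encoded genes had a P minus R that passed, and in R 9, 0 and 8 of them were called higher and 2, 6 and 1 lower.

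**Figure D5:**
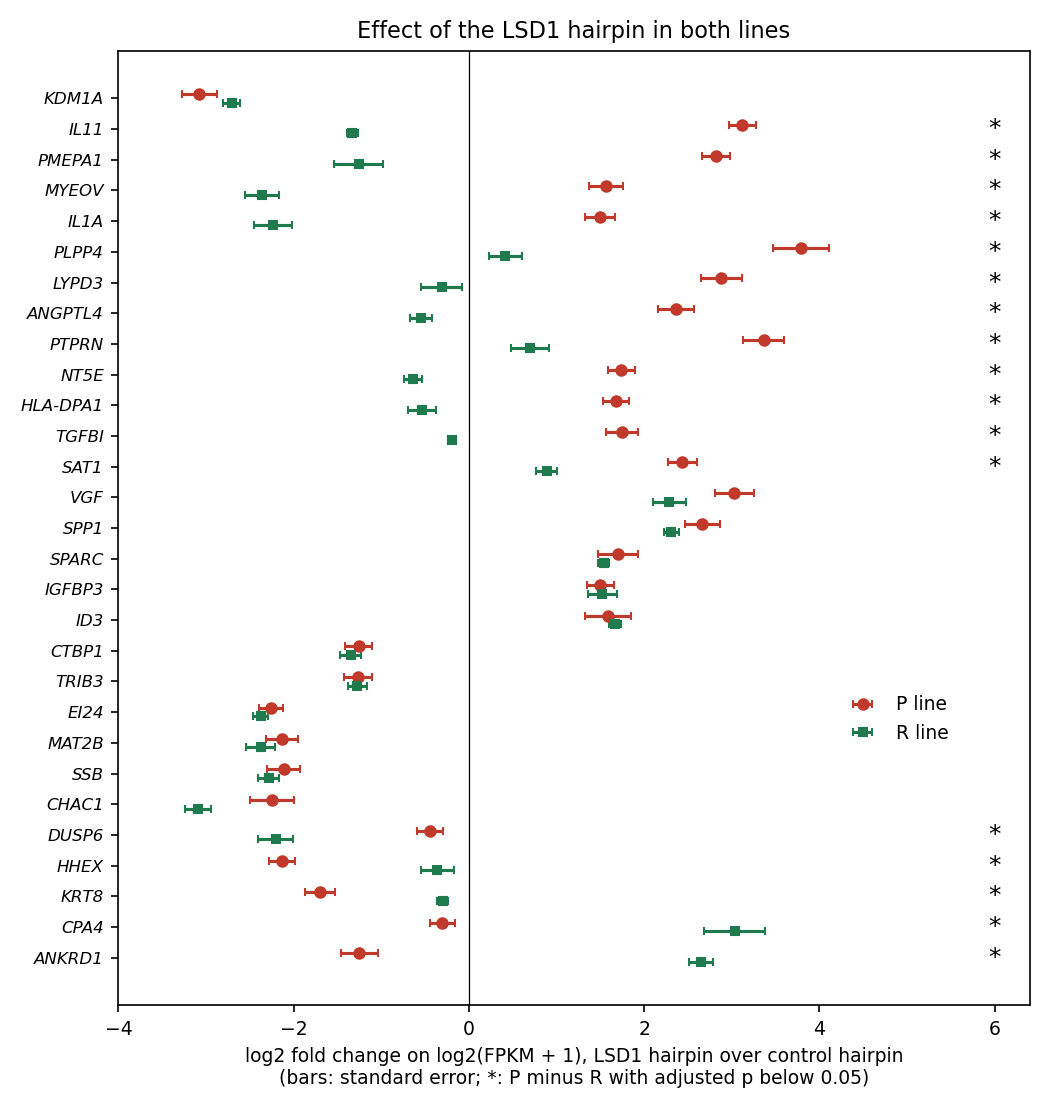
Log2 fold change (points) ± standard error (bars) of the LSD1 hairpin over the control hairpin for 29 genes, with the P line (circles) above the R line (squares), n = 2 libraries a group, and asterisks where P minus R had an adjusted p below 0.05. IL11 lies at 3.12 in P and -1.33 in R, while EI24 lies at -2.26 in P and -2.38 in R.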

How the data were processed

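RNA of the A375 melanoma cell line was sequenced and deposited as FPKM per gene, which the authors computed. The submitters' processing notes name CASAVA 1.4, HISAT2 2.1.0, Cufflinks 2.2.1 and the hg38 build, with no order or role. The deposited FPKM of each hairpin experiment stand in a separate table, and whether the tables were normalized together is not known here. Whole reads could not be recovered, since 25.9% to 31.6% of low values lay within 0.1 of a whole multiple, so no count test was run, depth is a rough estimate that assumes 250-base fragments, and no counting interval is given. The labels mention a directional kit and rRNA depletion without assigning samples, and the counting strand is not given in the sources used here.

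Genes with at least 1 FPKM in 2 or more of the 4 libraries were tested on log2(FPKM + 1) with limma 3.58.1 in R 4.3.3 (trended, robust eBayes, 2 residual degrees of freedom), with Benjamini-Hochberg adjustment over all genes tested. P minus R was tested over 8 libraries. Tables and plots used Python 3.11.15, numpy 2.4.6, pandas 2.3.3 and matplotlib 3.10.9; the scripts were tested on simulated data. Overlaps came from GENCODE 29, in which 58520 of 60595 identifiers were found, current symbols from a name table that held 60242 of them, and promoters from RefSeq. In the P table the interval and status columns beside the LSD1 hairpin FPKM carry names of a different hairpin; they were not used, and the FPKM columns were assigned by their own names.

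The genes named are KDM1A, 10 fixed genes, the 15 largest called rises and falls with a symbol, groups apart and a mean of at least 2 FPKM, up to 4 called members of each list (2 with the smallest p where none was called), and the 5 largest differences each way between lines. Further members of the lists are given as values and were chosen after their values were seen. Some genes are not reported here, though counts and medians over lists include them. The members and the 37 lists were chosen with earlier results of these data known. Same-numbered replicates did not deviate together in P, so no pairing was used. Alternatives covered the pseudocount, the filter, scaling, trends, variance moderation, a replicate block and each library left out.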

Additional observations from a re-analysis of the deposited data

Results flagged for a closer look

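Each gene given here differed between the P and R lines in its response to the LSD1 hairpin by the limma test of P minus R, with an adjusted p below 0.05. All values are P minus R on the log2(FPKM + 1) scale, over 2 libraries a group.

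Above 0 among cytokine, secreted and matrix genes were IL11 at 4.45, IL1A at 3.73, ANGPTL4 at 2.91, COL5A3 at 2.93, COL5A1 at 2.36 and TGFBI at 1.94. Surface, adhesion and junction genes above 0 were LYPD3 at 3.19, NT5E at 2.37, CLDN4 at 1.98, ADAM19 at 1.84, ITGB8 at 1.81 and ITGA5 at 1.43. The secretory granule genes PTPRN and PCSK1 stood at 2.67 and 2.43, and the class II genes HLA-DPA1, HLA-DRA and CD74 at 2.21, 1.78 and 1.42. PMEPA1 stood at 4.08, MYEOV at 3.93, PLPP4 at 3.37, PFKFB4 at 1.87, DUSP6 at 1.76 and SAT1 at 1.55. SNORD3C, which has near-identical copies, stood at 4.12.

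Below 0 were ANKRD1 at -3.90, CPA4 at -3.34, MMP12 at -3.21, IL1RL1 at -2.68, LPAR1 at -1.91, FST at -1.90, BMP4 at -1.87, HHEX at -1.77 and KRT8 at -1.40. The pseudogenes HMGA1P3 and SNRPGP15 stood at -3.89 and -3.56. HLA-DRA, ITGB8, COL5A3, PCSK1, FST, IL1RL1, LPAR1 and BMP4 were below 1 FPKM in every R library, so their differences rest on P.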

How the results depend on the processing

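The count of 504 called genes was 777 over genes at 5 FPKM or more, 879 after quantile normalization, 1234 with the length and GC trends removed, 319 with eBayes without trend and robust fitting, 917 over protein-coding genes and 2263 with 8 libraries fitted together. With every gene above 0 FPKM it was 0 by limma, with 3969 at an unadjusted p below 0.05 among 25913 tested. Leaving out 1 library gave 271 to 950. With the replicate block it was 945, and 822 with the trends removed as well; same-numbered replicates had a correlation of -0.44 in P and 0.05 in R, so the numbers do not pair the samples. A crossed replicate block, chosen after seeing the data, gave 3446. For P minus R the 303 calls became 84 with every gene above 0 FPKM, 589 with trends removed, 1 with the replicate block, 18 with block and trends removed, and 31 to 135 with 1 library left out. The cause of these shifts was not tested.

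Of the 92 named called genes, 61 kept the call in each fit with 1 library left out, and no called value changed sign. With every gene above 0 FPKM all 92 lost the call. With eBayes without trend and robust fitting 23 lost it, at adjusted p-values of 0.0506 to 0.0702: SOX10, TAPBP, FBN1, KRT18, ID3, TGFBR2, IL24, TNFAIP2, GDF15, MAD2L1, MCM6, MCM2, GINS2, SLC16A3, SLC2A3, P4HA2, PLOD2, LAMP2, CTSA, ATP6V1A, IGFBP4, IGFBP7 and SNRPGP15. With the replicate block SOX10 (0.0863), TAPBP (0.0547), SPARC (0.0501), MCM2 (0.0829) and CTSA (0.0517) lost it, and MCM2 (0.0509) with block and trends removed. With a pseudocount of 0.1, ARHGEF16 (0.0602), GDF15 (0.0518) and AKR1C2 (0.0502) did, and with 8 libraries fitted together CTBP2P1 (0.231). Uncalled genes near 0 changed sign. With the trends removed, GPX4 was 0.0505, with and without the replicate block. With 1 library left out, the lowest and highest values were -0.0519 and 0.0613 for FOSL1, -0.434 and 0.194 for GPX4, -0.197 and 0.0353 for AXL, -0.672 and 0.0245 for EGFR, and -0.337 and 0.0090 for MITF. FOSL1 was -0.0012 without P_shCtrl replicate 2, and GPX4 0.110 without P_shCtrl replicate 1. With 2 libraries a group and roughly 9.1 to 10.3 M fragments each, small changes of low genes were not detectable.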
